A study of Homo sapiens with 2 samples.

Results

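The 901 regions described here are ChIP peaks that lay inside very long genes, away from any promoter. Within 70 bp of their summit, they lacked the short sequence next to a PAM that *uPA* gRNA T2 would pair with. HEK293T cells, an established human embryonic kidney line, received, by transient transfection, 500 ng of a plasmid for the fusion dCas9-BFP-DNMT3A together with *uPA* gRNAs (500 ng in total). After 48 hours the fusion was precipitated through its HA tag, and the result was compared with 1 input sample, which the labels describe only as the input of the same cell line without antibody. The labels list 1 ChIP sample and 1 peak list, whereas the methods speak of triplicates, so there was no replicate check and no test between conditions. All intervals below are 95% intervals that cover counting error only. The list was called on 44934315 ChIP tags and 46375481 input tags after removal of duplicates.

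A peak was counted when its summit, the position with most overlapping tags, lay in a protein-coding gene of 300 kb or longer and more than 2 kb from every protein-coding transcription start. In addition, no site wholly within 70 bp of the summit, on either strand, matched the last 5 bases of T2 (its seed) followed by NGG, the PAM that Cas9 requires. Of 7748 peaks on chromosomes 1 to 22 and X, 1105 had their summit in such a gene. Of these, 23 were within 2 kb of a start and 181 of the others held a T2 seed, which left 901 peaks, 11.6% of the list. No measure of enrichment beyond the presence of the peak entered this choice.

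Catalytically dead Cas9 (dCas9) keeps the ability to find DNA through its gRNA without cutting it. It first recognises the PAM and then pairs the gRNA with the adjacent DNA, starting from the seed, so that short seed matches can be bound across the genome. DNMT3A is a *de novo* DNA methyltransferase, which the fusion carries to wherever dCas9 binds. Very long genes consist almost wholly of introns, and many of them encode neuronal adhesion molecules and ion channels.

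The 5 *uPA* gRNAs were designed for the *uPA* promoter. T2 and T4 read as follows, 5′ to 3′ with the seed in capitals, because the results turn on their seeds. T2 is purine-rich, whereas the seed of T4 holds a CpG.

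T2: gagccgggcgggagaGGGAG

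T4: gcccggggatctcagGACCG

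Although the peaks lacked a T2 seed at the summit, some of the most enriched held a T2-like site elsewhere in the peak. A T2-like site is here a stretch with at most 1 mismatch to the last 11 bases of T2, followed by NGG. It was held within 211 bp of the summit by 10 of the 29 peaks with a fold enrichment of 5 or more. Anywhere in the peak, it was held by 11 of the 61 peaks with a *P* at or below 1e-05. Of the 10 most enriched by fold, 6 held such a site, and so did 4 of the 5 with the smallest *P*. The sites of 6 of these peaks are printed from GRCh37, the assembly of hg19, as the plus strand with 30 bases on each side. Capitals mark the 11 bases and the PAM, and sites on the minus strand appear as their reverse complement.

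*NPAS3*, chr14:33810703-33810776: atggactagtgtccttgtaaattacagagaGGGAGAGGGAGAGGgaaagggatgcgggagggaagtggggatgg

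*CLSTN2*, chr3:139826149-139826222: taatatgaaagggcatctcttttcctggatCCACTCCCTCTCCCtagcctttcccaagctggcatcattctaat

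*CDH23*, chr10:73299385-73299458: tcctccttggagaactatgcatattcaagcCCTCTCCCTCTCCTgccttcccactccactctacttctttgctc

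*PPP2R2B*, chr5:146070849-146070922: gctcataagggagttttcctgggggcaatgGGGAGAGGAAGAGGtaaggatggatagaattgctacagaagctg

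*BMPR1B*, chr4:95965431-95965504: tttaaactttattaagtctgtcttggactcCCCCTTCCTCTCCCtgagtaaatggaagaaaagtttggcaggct

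*TRIO*, chr5:14170094-14170167: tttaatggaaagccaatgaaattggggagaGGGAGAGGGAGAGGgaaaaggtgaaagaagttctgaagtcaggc

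The peak in the third intron of *NPAS3*, which encodes a neuronal transcription factor, had the highest fold enrichment of the 901 peaks, 7.17, with 50 tags and a site with 0 mismatches centred 112 bp from the summit. The peak in the first intron of *CLSTN2*, the gene of a calsyntenin of the synapse, had a fold enrichment of 6.91 with 46 tags and a score of 136, the highest score of all 901. This score grows as the *P* of the peak caller MACS falls (-10 log10 *P*). Its site, with 0 mismatches, was 122 bp from the summit. The peak in *CDH23*, a cadherin of the hair cell tip link, had the same fold enrichment of 6.91, and its site with 1 mismatch was 130 bp away.

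*PPP2R2B* (a regulatory subunit of protein phosphatase 2A) had a fold enrichment of 6.79 and a site with 1 mismatch at 147 bp. *BMPR1B*, a receptor for bone morphogenetic proteins, had 6.28 and a site with 1 mismatch at 112 bp. *ATG10*, an enzyme of autophagy, had 6.01 and a site with 0 mismatches at 138 bp. *TRIO*, a guanine nucleotide exchange factor, had 5.63, a score of 93.7 and a site with 0 mismatches at 78 bp. Each of these sites thus lay beyond the 70 bp searched for the rule, but within the same peak.

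In all, 24 of the 901 peaks held a T2-like site anywhere in the peak, and 18 of them had one centred within 211 bp of the summit. None of the 901 held one within 70 bp, where the rule had already removed sites with an intact seed. Of the 24, 10 had a fold enrichment of 5 or more (41.7%, Wilson interval 24.5 to 61.2%), against 19 of the 877 peaks without such a site (2.17%, 1.39 to 3.36%). The 10 all had their site within 78 to 147 bp of the summit, and the 6 peaks whose T2-like sites lay only farther out had fold enrichments from 2.91 to 4.21. The share at this threshold over all 7748 peaks was 14.0%.

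The windows next to the central one, from 71 to 211 bp out, held a T2-like site in 16 of 1646 windows that fitted in the peaks (0.972%, Wilson interval 0.599 to 1.57%). The windows from 212 to 352 bp held one in 2 of 1336 (0.150%). Over all 3199844 windows of the same size laid end to end across the same long-gene sequence, the share was 0.0889%. For the bare 5-base seed the corresponding shares were 2.73%, 2.47% and 2.41%, so that the longer match was more frequent in the adjacent windows than in the sequence at large whereas the interval for the bare seed (2.05 to 3.64%) included the share of the sequence.

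Such sites were also found beside no-T2-seed peaks outside long genes. A T2-like site within 211 bp was held by 10 of 29 peaks with a fold enrichment of 5 or more in long genes (34.5%, Wilson interval 19.9 to 52.7%), by 23 of 106 such no-T2-seed peaks in shorter genes (21.7%, 14.9 to 30.5%) and by 37 of 123 between genes (30.1%, 22.7 to 38.7%). These intervals overlapped. At a fold enrichment under 5, the share was 0.917% (0.466 to 1.8%) in long genes, 2.47% (1.89 to 3.21%) in shorter genes and 1.72% (1.304 to 2.27%) between genes. There the interval for long genes lay below that for shorter genes and overlapped that for the sequence between genes.

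The other 4 of the 10 peaks with the highest fold enrichment had no T2 seed anywhere in the peak. They were in *FOXN3*, *LHFPL3*, *ZFHX3* and *CAMK1D*. The summit with 70 bp on each side is printed for each, since these were the most enriched peaks without the seed. The rule had already removed every window with a T2 seed, so its absence here is no finding.

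*FOXN3*, chr14:89973698-89973838: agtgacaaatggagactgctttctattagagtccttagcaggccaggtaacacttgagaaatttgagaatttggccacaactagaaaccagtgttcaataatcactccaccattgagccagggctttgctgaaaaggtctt

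*LHFPL3*, chr7:104415090-104415230: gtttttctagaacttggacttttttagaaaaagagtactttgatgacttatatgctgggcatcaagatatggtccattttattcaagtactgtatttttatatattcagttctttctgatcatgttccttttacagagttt

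*ZFHX3*, chr16:73110131-73110271: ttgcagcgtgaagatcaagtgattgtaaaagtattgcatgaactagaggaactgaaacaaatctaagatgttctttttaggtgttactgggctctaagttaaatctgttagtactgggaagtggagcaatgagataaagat

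*CAMK1D*, chr10:12546614-12546754: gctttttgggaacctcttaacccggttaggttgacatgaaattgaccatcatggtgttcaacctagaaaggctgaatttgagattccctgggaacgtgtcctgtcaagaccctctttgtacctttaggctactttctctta

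*FOXN3*, a forkhead transcription factor, had a fold enrichment of 6.31 from 29 tags, with a score of 36.1. *LHFPL3*, a tetraspan membrane protein, had 5.71 from 35 tags and *ZFHX3*, a zinc finger homeobox transcription factor, had 5.71 from 34 tags. *CAMK1D*, a calcium/calmodulin-dependent kinase, had 5.71 from 31 tags. Their tags were near the median of 35 over the 901 peaks, and their scores ran from 36.1 to 57.7. Of the 6 with a T2-like site, *ATG10* (30 tags, score 47.9) and *PPP2R2B* (37 tags, score 48.8) had scores in the same range. The other 4, in *NPAS3*, *CLSTN2*, *CDH23* and *BMPR1B*, lay above it, with 38 to 50 tags and scores from 59.0 to 136.

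The 5 peaks with the most tags were broad and weakly enriched. They were in *KLF12* (264 tags), *CNTNAP2* (228), *GPC6* (197), *GAREM1* (196) and *CDKAL1* (160), spanned 3839 to 5322 bp and had fold enrichments from 2.55 to 3.25. *KLF12*, which encodes a Krüppel-like transcription factor, held a site with 0 mismatches 703 bp from its summit. *RTL4*, a retrotransposon-derived gene on chromosome X, and *MEGF11*, a transmembrane protein with EGF-like repeats, completed the peaks with the smallest *P*. Their scores were 89.1 and 81.3.

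As a group the 901 peaks were weak. Their median fold enrichment was 3.61 (quartiles 3.26 and 4.07, range 2.39 to 7.17), and the median peak held 35 tags (range 17 to 264) over 943 bp. The fold enrichment was under 4 for 649 of them (72.0%). Their median was close to those of the 2256 no-T2-seed peaks in shorter genes (3.63) and of the 2971 between genes (3.64), also more than 2 kb from a start. The 181 peaks that held a T2 seed in the same long-gene sequence had a median of 5.41 (quartiles 4.51 and 6.61).

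A MACS *P* at or below 1e-05 was reached by 61 of the 901 peaks (6.77%, Wilson interval 5.31 to 8.60%), against 15.8% of all 7748 peaks. The share was 9.97% (8.80 to 11.3%) in shorter genes and 9.39% (8.39 to 10.5%) between genes for no-T2-seed peaks. It was 43.1% (36.1 to 50.4%) for the T2-seed peaks of the same sequence. A fold enrichment of 5 or more was found in 29 of the 901 (3.22%, 2.25 to 4.58%) and in 115 of the 181 (63.5%, 56.3 to 70.2%). The false discovery rate, taken by MACS from a swap of ChIP for input, was below 100% for 87 of the 901 peaks (9.66%), against 18.3% of all peaks, and its lowest value among them was 18.4%.

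Within the 901, 134 held a T2 seed elsewhere in the peak and 767 held none. Peaks with a seed elsewhere were longer (median 1064.5 bp against 910 bp) and held more tags (median 42 against 34). The split itself favours longer peaks, which have more sequence that can hold a seed, so these differences are no finding. Their medians of fold enrichment were 3.56 and 3.61. A fold enrichment of 5 or more was found in 14 of the 134 (10.4%, Wilson interval 6.33 to 16.8%) and in 15 of the 767 (1.96%, 1.19 to 3.20%). Of those 14, 10 were the peaks with a T2-like site given above, so this contrast largely repeats that result.

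In the long genes, no-T2-seed peaks were sparser than in shorter genes and about as dense as between genes. The eligible long-gene sequence (sequenced bases more than 2 kb from a start) came to 451 Mb, which gave 1.996 peaks per Mb (exact Poisson interval 1.87 to 2.13). Shorter genes had 2.91 per Mb (2.79 to 3.03) over 775 Mb, and the sequence between genes had 1.97 (1.90 to 2.04) over 1509 Mb. The ratio of long to shorter genes was 0.686 (exact interval 0.634 to 0.741), and that of long genes to the sequence between genes was 1.01 (0.940 to 1.09). T2-seed peaks gave a ratio of long to shorter genes of 0.767 (0.640 to 0.917), with an interval that overlapped that of the peaks without the seed.

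The density fell further with gene length. It was 2.97 per Mb in genes under 50 kb, 2.98 from 50 to 100 kb, 3.03 from 100 to 200 kb and 2.55 from 200 to 300 kb. Among the long genes, it was 2.30 per Mb (exact Poisson interval 2.09 to 2.53) from 300 to 500 kb with 427 peaks, 2.003 (1.795 to 2.23) from 500 kb to 1 Mb with 337 peaks and 1.41 (1.18 to 1.67) at 1 Mb or longer with 137 peaks. The longest class thus had 0.613 times (exact interval 0.502 to 0.744) the density of the 300 to 500 kb class. T2-seed peaks went from 0.479 to 0.410 and 0.236 per Mb over these 3 classes, a ratio of longest to shortest of 0.494 (0.298 to 0.788). The median fold enrichment without the seed was 3.61, 3.61 and 3.65.

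Chromosomes and base composition differ between gene classes, so the densities were also compared within them. On all 23 chromosomes the density was lower in long than in shorter genes, although often by little, as on chromosome 5 (2.82 against 2.92 per Mb) and chromosome 4 (2.23 against 2.27). It was far lower on chromosome 11 (0.989 against 3.21). Chromosome 19 had no such peak in a long gene. Combined within chromosomes by the Mantel-Haenszel formula, the ratio of long to shorter genes was 0.674.

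Within classes of GC content of the 70 bp on each side, the combined ratio of long to shorter genes was 0.610, and the density was lower in long genes in each of the 5 classes. Within classes of GC content over 10 kb it was 0.728. There the densities were close at the extremes, with 1.08 against 1.09 per Mb where GC was below 35% and 1.72 against 1.71 where it was 50% or more. From 45 to 50% they were 2.19 (exact Poisson interval 1.70 to 2.76) and 3.89 (3.54 to 4.27). The share of sequence to which reads map uniquely was not measured, and its part in these densities was not tested.

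Of the 824 genes of 300 kb or longer, 470 (57.0%) held at least 1 peak. A further 354 held none, 238 held 1, 117 held 2 and 51 held 4 or more. A member lay in more than 1 long gene in 10 cases and was counted in each. The T2-seed peaks fell in 153 of the genes. Of these 153, 107 (69.9%) also held a peak without the seed, against 54.1% of the genes without a T2-seed peak. Gene length was not held equal here, and its part was not tested. The share of genes with a peak lacking the seed was 52.5% from 300 to 500 kb, 62.7% from 500 kb to 1 Mb and 69.0% at 1 Mb or longer.

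*THSD4*, which encodes a thrombospondin-repeat protein of the extracellular matrix, held the most. Its 10 peaks over 0.676 Mb came to 14.8 per Mb (exact Poisson interval 7.09 to 27.2), where the density of all long genes would give 1.35. Intervals of single genes, here and below, do not allow for a choice of genes by count or density among the 824. The gene spans chr15:71389291-72075722, and the peaks lay from the sixth to the fourteenth intron of its canonical transcript. Their fold enrichments were between 2.6 and 3.99, their tags between 23 and 76 and their highest score was 48.7. So none of the 10 reached a *P* of 1e-05. No peak with a T2 seed at its summit was counted in the gene, but some of the 10 held a T2 seed farther out in the peak.

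*DAB1*, an adaptor of reelin signalling, held 8 peaks over 1.54 Mb (5.19 per Mb, exact Poisson interval 2.24 to 10.2). *GMDS*, an enzyme of fucose synthesis, held 7 over 0.616 Mb (11.4 per Mb, 4.57 to 23.4). *WWOX*, *ZFPM2*, *TENM2* and *PDE4D* also held 7 each. They encode an oxidoreductase with WW domains, a cofactor of GATA factors, a teneurin of synaptic adhesion and a cAMP phosphodiesterase. Their densities ran from 4.61 per Mb in *PDE4D* to 6.30 in *WWOX*. *CDKAL1*, *PTPRG* and *LRMDA* held 6 each.

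By density, among genes with at least 4 peaks, the gene with identifier ENSG00000271949 came first. It is 300.1 kb long, the shortest gene to count, and held 5 peaks (17.1 per Mb, exact Poisson interval 5.54 to 39.8). *CTNNA1*, which encodes a catenin of adherens junctions, held 4 (12.8 per Mb), *MACF1*, a crosslinker of microtubules and actin, held 5 (12.7), and *CELF4*, an RNA-binding protein, held 4 (12.5). At these counts the intervals were wide, and that of *CELF4* reached down to 3.40 per Mb. On the other side of the length threshold, the peaks in *PCBP3* (298.8 kb), *GHR* (298.4 kb) and *KIAA1549L* (298.0 kb) were left out, and their fold enrichments were 3.15, 4.21 and 3.91. The 5 in ENSG00000271949 had fold enrichments between 3.09 and 4.51.

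The 5 longest genes held few peaks. *RBFOX1*, a splicing regulator, held 1 over 2.44 Mb (0.410 per Mb, exact Poisson interval 0.0104 to 2.29), where the density of all long genes would give 4.87. *CNTNAP2*, of the neurexin family, held 2 against 4.58. *PTPRD*, a receptor phosphatase of synaptic adhesion, and *DLG2*, a postsynaptic scaffold, held 0 against 4.58 and 4.28, which allows up to 1.61 and 1.72 per Mb at the upper interval bound. *DMD*, the gene of dystrophin, held 4 against 4.42.

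The long genes were also grouped by 7 textbook lists, and a gene may be in several. Genes of synaptic and neurite adhesion held 53 peaks in 25 of 45 long genes, or 1.29 per Mb (exact Poisson interval 0.969 to 1.69), below the 1.996 of all long genes. *TENM2* (7 peaks), *PTPRG* (6), *SLIT3* (5) and *UNC5C* (3) held the most among them. Cadherins and catenins held 11 peaks in 5 of 15 genes, or 0.785 per Mb (0.392 to 1.41), with *CTNNA1* (4), *CDH23* (3) and *PCDH15* (2) leading. Ion channels and neurotransmitter receptors held 40 in 20 of 49 genes, or 1.398 per Mb (0.999 to 1.90).

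Common fragile site genes, which tend to break under replication stress, held 56 peaks in 17 of 22 genes, or 1.83 per Mb (exact Poisson interval 1.38 to 2.38). Large matrix and cytoskeletal proteins held 52 in 26 of 41 genes, or 1.66 per Mb (1.24 to 2.17). Phosphodiesterases and kinases held 42 in 22 of 32 genes, or 2.31 per Mb (1.67 to 3.13). Regulators of transcription and RNA had the highest density of the 7 lists, with 65 peaks in 24 of 37 genes, or 2.63 per Mb (2.03 to 3.36). *ZFPM2* (7), *ZFHX3* (5), *AUTS2* (5) and *CELF4* (4) held the most of these. The median fold enrichment ranged only from 3.55 to 3.71 across the lists. The lists also differed in gene length, with medians from 476 kb to 1429 kb, and the part of length in their densities was not tested. The median length was 928 kb for cadherins and catenins, 846 kb for adhesion genes and 1429 kb for fragile site genes. It was 477 kb for channels and receptors, 476 kb for phosphodiesterases and kinases and 538 kb for regulators. The density interval of channels and receptors lay below that of the regulators. No densities of lists were compared at equal gene length.

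The peaks were spread over the whole length of the genes. From the 5′ to the 3′ end, each of 10 equal parts of the gene held between 77 and 105 peaks (8.55 to 11.7%), where each held 9.64 to 10.1% of the eligible sequence. The first part held 105 (Wilson interval 9.72 to 13.9%, for 9.64% of the sequence) and the second 77. By the canonical transcript, 152 peaks (16.9%, for 16.3% of the sequence) were in the first intron, 128 (14.2%, for 12.7%) in the second and 374 (41.5%, for 44.9%) in the fourth or later introns. Protein-coding exons held 11 peaks (1.22%, 0.683 to 2.17%) for 1.47% of the sequence, and coding sequence held 3.

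The summits were on average no richer in GC than the long-gene sequence as a whole, but less varied. The median GC content within 70 bp of the summit was 38.3% (quartiles 34.0 and 41.8%), and that of all windows of the same sequence without a T2 seed was 38.3% (quartiles 32.6 and 44.7%). From 35 to 45% GC lay 55.2% of the summits but 39.6% of the windows, and at 50% or more lay 3.88% and 12.5%. The T2-seed peaks of the same sequence had a median of 47.5%. At least 1 CpG, the dinucleotide that DNMT3A methylates, was held by 517 of the 901 windows (57.4%), for 57.5% of the sequence windows. The mean number of CpGs per window was lower at the summits, 0.884 against 1.11.

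Purine runs were less frequent at the summits than in the sequence. A run of 20 or more purines on either strand was held by 13 of the 901 windows (1.44%, Wilson interval 0.845 to 2.45%), for 2.79% of the sequence windows. The share was alike in no-T2-seed peaks of shorter genes (1.46%) and between genes (1.31%). It was 40.3% (73 of 181) in the T2-seed peaks, which the rule set apart by a seed made of purines. The repeat GAGAGAGA was held by 11 (1.22%, 0.683 to 2.17%), for 1.60% of the sequence. A site with at most 3 mismatches to 11 bases of T2 and an NGG was held by 16 (1.78%, 1.10 to 2.86%), for 2.88%. The T2 seed with NAG, a weaker PAM, was held by 27 (2.997%, 2.07 to 4.32%), for 2.43%.

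Among the seeds of the other gRNAs, that of T4 stood above the level of the sequence. The T4 seed with NGG was held by 8 of the 901 windows (0.888%, Wilson interval 0.451 to 1.74%), for 0.169% of the sequence windows, a share that would give 1.52. Farther out in the same peaks, 12 of 4969 windows held it (0.241%, 0.138 to 0.422%). The share at the summit was 0.665% in shorter genes and 0.640% between genes for no-T2-seed peaks. It was higher, 6.63% (12 of 181), in the T2-seed peaks of the same long-gene sequence. The T4 excess was thus not confined to peaks without a T2 seed. Of the 901 windows, 4 held the T1 seed (0.444%, for 0.261% of the sequence). That of T3 was held by 11 (1.22%, for 0.934%) and that of T5 by 13 (1.44%, for 2.63%). The Wilson intervals for T1 (0.173 to 1.14%) and T3 (0.683 to 2.17%) included the share of the sequence, and that for T5 (0.845 to 2.45%) lay below it. Among the 8 peaks, named here after their values were seen, were those in *EGLN3*, *GSE1*, *CERS6*, *MEGF11*, *CDKAL1* and *ITPR1*. The 4 with the highest fold enrichment are printed with the T4 seed and PAM in capitals.

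*EGLN3*, chr14:34412124-34412264: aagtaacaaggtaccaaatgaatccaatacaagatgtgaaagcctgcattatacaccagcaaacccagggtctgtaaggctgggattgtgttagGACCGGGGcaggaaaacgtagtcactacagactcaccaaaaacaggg

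*GSE1*, chr16:85583098-85583238: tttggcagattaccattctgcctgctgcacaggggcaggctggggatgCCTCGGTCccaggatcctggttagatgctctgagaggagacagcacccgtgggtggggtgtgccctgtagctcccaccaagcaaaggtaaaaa

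*CERS6*, chr2:169375424-169375564: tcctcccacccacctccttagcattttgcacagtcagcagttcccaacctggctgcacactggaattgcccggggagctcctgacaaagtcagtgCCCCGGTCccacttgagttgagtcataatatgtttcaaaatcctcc

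*MEGF11*, chr15:66418512-66418652: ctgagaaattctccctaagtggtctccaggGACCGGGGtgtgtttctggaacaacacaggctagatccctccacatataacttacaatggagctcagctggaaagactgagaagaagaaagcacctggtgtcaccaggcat

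The fold enrichments of the 8 ran from 2.99 in *ITPR1*, the receptor for inositol trisphosphate, to 4.35 in *EGLN3*, a prolyl hydroxylase of the hypoxia response. *CERS6*, a ceramide synthase, had 3.77 with 67 tags and a score of 71.9. None of the 8 reached a fold enrichment of 5, and their median was 3.39. The seed was centred between 4 bp (in *CDKAL1*) and 45 bp from the summit.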

How the data were processed

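1 list of ChIP peaks, from 1 ChIP sample over 1 input sample of HEK293T cells, was analysed. Single-end reads were aligned by the authors (SOAP2, hg19). Unique reads were then drawn to equal numbers, 62723055 and 62723050 tags of 49 bp, before peak calling in MACS 1.4.2 with a *P* cutoff of 0.001. Whether peaks in repeats were removed from the list could not be checked. The paper describes keeping peaks common to triplicates and removing those in repeats and rDNA, and its main text reports far fewer enriched peaks. The 7757 deposited peaks are therefore a larger set than that one. A supplementary figure legend of the paper counts nearly as many binding sites as were deposited. The deposited tag counts are whole ChIP tags per peak, not normalized. The deposited fold enrichment is a ratio to the local input background. The deposited FDR is a percent, and the deposited score is -10 times log10 of the MACS *P*. At this depth the smallest peak held 17 tags.

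Of 7757 peaks, 8 on other contigs and 1 on chromosome Y were left out. The summit was the start plus the offset less 1. Genes and basic protein-coding transcripts were from GENCODE 44 mapped to GRCh37, and gRNA sequences from the study's supplementary table. Windows of the summit window's size (70 bp on each side) were laid end to end over all eligible sequence. Wilson, exact Poisson and exact ratio intervals were computed in Python 3.11.15 with scipy 1.17.1. The scripts were tested on simulated data. Peaks of 1 list are not replicates, so no *P* was computed. The members, gene lists and alternatives were chosen with earlier results of these data known. Named were the 12 long genes with most members, the 5 longest, the 5 with most members per Mb among those with at least 4, up to 4 genes a list, and the 10, 5 and 5 peaks with the highest fold enrichment, smallest *P* and most tags. T2-like sites away from the summit were examined after the data had been seen. The alternatives were 12 set in advance (gene length, distance to starts, seed definition and window, summit, chromosomes and *P*) and 2 added. Some named genes and 1 sequence are not reported here.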

Additional observations from a re-analysis of the deposited data

How the results depend on the processing

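The 8 main results were recomputed under 12 alternatives and, where they applied, 2 added after seeing the data. The ratio of long to shorter genes stayed under 1 in all 14. With genes of 500 kb or longer, 474 peaks in 207 genes remained, at 1.78 per Mb. With 200 kb or longer, the density was 2.14 per Mb and 747 genes held a peak. When peaks with a T2 seed anywhere were left out, the density was 1.70 per Mb. With only peaks of *P* at or below 1e-05, there were 61 peaks in 59 genes, at 0.135 per Mb, a ratio of 0.466, a median fold enrichment of 3.98 and a median GC of 39.0%; the share at that *P* is then fixed and was not computed. The counts depend on which genes and peaks each alternative admits. The causes of the changed densities, medians and ratio were not tested. The other values stayed within the interval of the main value or, for counts, within 1.5 times of it. No paired analysis was possible because there was 1 ChIP sample. With 1 peak list and 17 or more tags a peak, weaker binding could not be detected.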

Other observations

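The peaks without a T2 seed were seldom close together. The nearest other such peak in a long gene was a median of 143.5 kb away (quartiles 44.2 and 578 kb), and 59 of the 901 had one within 10 kb. The closest pair, 1179 bp apart, was in *CADM1*, a cell adhesion gene, with fold enrichments of 3.58 and 2.81 from 34 and 47 tags. *CADM1* was named after its values were seen.

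Words of 5 bases were also counted within 70 bp of the summit, a word and its reverse complement as 1, and compared with all windows of the same sequence without a T2 seed. CCATA was held by 270 of the 901 windows (29.97%, for 20.7% of the sequence), ATAGG by 247 (27.4%, for 19.0%) and CTATA by 267 (29.6%, for 21.3%). CAGGC was held by 165 (18.3%, for 25.6%). Words with a CpG stood at both ends of the order. Of 122 such words, 89 had a lower share at the summits than in the sequence, and the 20 words with the lowest ratio out of 512 each contained a CpG, among them CCGCC (14 windows, 1.55%, for 4.58%) and CGGGC (11 windows, 1.22%, for 3.704%). The word with the highest ratio, CGGTC, is the reverse complement of the T4 seed and was held by 26 windows (2.89%, for 1.86%). The next in order, ACGGC (36 windows, 3.996%, for 2.645%) and CCGTA (33 windows, 3.66%, for 2.53%), also hold a CpG. These words were chosen after their values were seen, and no test was made.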
